A study of Mus musculus with 4 samples.

Results

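Ubiquitin-specific proteases (USPs) are the largest family of deubiquitinases, enzymes that remove ubiquitin from other proteins. They were taken here as every gene whose symbol is Usp followed by a number (with *Usp9x* and *Usp27x*, and leaving out *Usp9y*), and as the probe sets that name such a gene and no other. By this rule 50 probe sets of 48 genes were members, out of 21044 probe sets of 19452 genes that name a single gene. The members were compared between RNA immunoprecipitated with a monoclonal antibody against CUGBP1 (CUGBP1 IP, 2 arrays) and RNA recovered with normal IgG (control IgG, 2 arrays). All 4 samples came from proliferating C2C12 (LKO-1) cells, a mouse myoblast line that stably carries an empty lentiviral vector, grown in puromycin and kept sparse so that they did not differentiate. Each immunoprecipitate came from cleared lysate of these cells, and the comparison shows which transcripts had more signal in the CUGBP1 IP than in control IgG. Whether the line is a clone is not given in the sources used here, and neither is whether replicates came from separate cultures, so p-values measure only the spread between these samples, which may be technical.

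Ubiquitin is attached to proteins by ligases and taken off by deubiquitinases. By trimming or removing the chains, a USP can save a substrate from the proteasome, recycle ubiquitin, or end a signal that the mark carried on a histone, a receptor or a DNA repair protein. Most USPs share a catalytic core with a cysteine in its active site and differ in the domains around it, which set their partners and place in the cell. CUGBP1, the product of *Celf1*, binds GU-rich sequence in messenger RNA and recruits deadenylases, so the transcripts it holds are candidates for regulated decay.

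Values are intensities divided by the 5th percentile of their own array. Over all 21044 probe sets the medians were 1.31 and 1.5 for CUGBP1 IP replicates 1 and 2, and 1.08 and 1.22 for control IgG. The background limit of an array was the 95th percentile of 1203 receptor probe sets (olfactory and vomeronasal), taken as not expressed in myoblasts, and stood at 1.23 and 1.29 for the CUGBP1 IP arrays and at 1.09 and 1.16 for the controls. All 6 myoblast markers were measured, and 5 of them (*Myod1*, *Myog*, *Myf5*, *Des* and *Chrna1*) were above background on all 4 arrays, while *Cdh15* was above it on 3. Of 14 measured markers of blood, endothelial, epithelial, neuronal and fat cells, *Krt8* alone was above background on all 4 arrays and 7 were above it on none. Replicate 2 was the brighter array in both groups, and for 42 of the 50 USP probe sets both replicate 2 values exceeded the replicate 1 values of the same group.

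Few USP transcripts stood out in the CUGBP1 immunoprecipitate. *Usp14*, whose product sits on the proteasome and trims ubiquitin from its substrates, was the 1 member of 50 that limma called higher (2.00% of the members, where 1.95% of all tested probe sets were called higher). limma called 0 members lower, where 0.138% of all probe sets were, and at an unadjusted p under 0.05 it found 24 members higher (48.0%, against 28.6% of all probe sets) and 0 lower. This larger share changed with the probe sets fitted and with scaling. limma was also fitted only to probe sets above background on at least 2 arrays, a filter that favours those high in the CUGBP1 IP. There 14 of 40 members had such a p, against 4409 of all 12686. With quantile normalization 5 of 50 members did, against 2921 of all 21044. *Usp31* and *Usp14* lay in the top 5% of the signal-to-negative ratio, defined as the average CUGBP1 IP intensity divided by the average control IgG intensity. They are 4.00% of the members, against 5.0% of all probe sets. When dim probe sets were left out by the same filter, the limit of the top 5% was 3.24, and *Usp31* was above it while *Usp14* was not. By calls and by top ranks the family was therefore close to the share of all probe sets.

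More of the family moved by small amounts. The ratio was above 1 for all 50 members (93.3% of all probe sets), though the log2 difference fell below 0 for 17 of them with arrays scaled to their medians, for 22 with quantile normalization and for 1 with arrays scaled to the receptor median. The lower CUGBP1 IP value exceeded the higher control value for 42 members (84.0%, against 66.3% of all probe sets), the reverse held for 0, and the groups of 8 overlapped. With arrays scaled to their medians 22 members were apart in this way (30.8% of all probe sets), and with quantile normalization 15 (19.4%). Members had a median log2 difference of 0.46, and all probe sets one of 0.29, which became 0.00 with arrays scaled to their medians and -0.02 with quantile normalization. The gap of 0.17 between these medians was also 0.17 with either scaling to a median, and 0.03 with quantile normalization. Among probe sets above background on at least 2 arrays, 40 of them members, both medians were 0.54 and the gap was 0.00. Ratios ran from 1.01 to 3.45, and they were above 2 for 4 members, from 1.5 to 2 for 11 and under 1.5 for 35. Members were also more often above background than other probe sets, in control IgG too. Of the 50, 26 and 37 were above it on the control IgG arrays (52.0% and 74.0%, against 39.6% and 57.2% of all), and 36 and 41 on the CUGBP1 IP arrays (72.0% and 82.0%, against 58.3% and 63.0%).

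**Figure D1:**
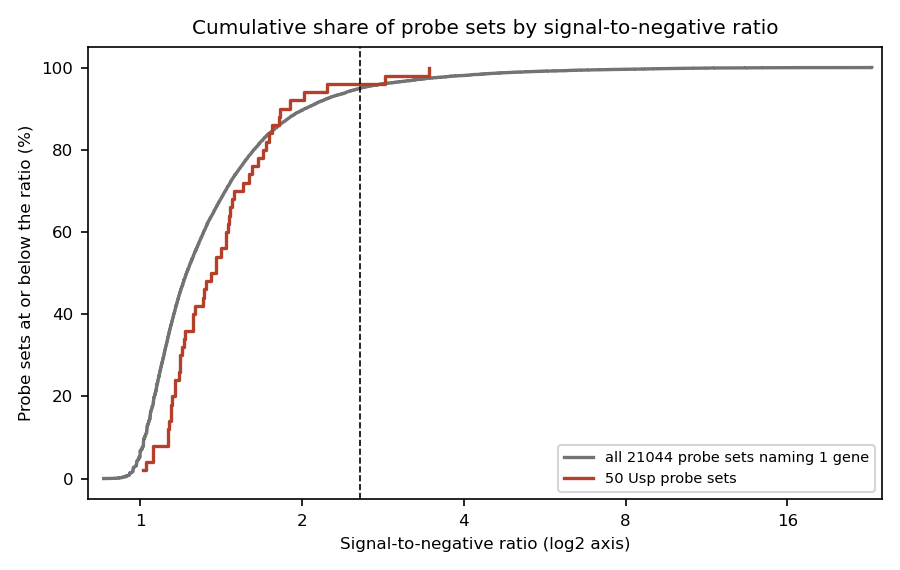
Cumulative share of probe sets (%) by signal-to-negative ratio (log2 axis), for the 50 USP probe sets and for all 21044 probe sets that name 1 gene, with the dashed line at the 95th percentile of the ratio, 2.57. The USP curve lies right of the curve of all probe sets at low ratios (medians 1.37 and 1.22) and stops at 3.45, while all probe sets reach 23.0. The same members had a median log2 difference of 0.01 with quantile normalization.

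Across the arrays, 24 USP probe sets were above background on all 4, 17 on 1 to 3 and 9 on none. The members below are ordered by the known role of their products, a grouping made from general knowledge of the family. Where a gene had several probe sets, the brightest of them, by its average intensity, stands for it.

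**Figure D2:**
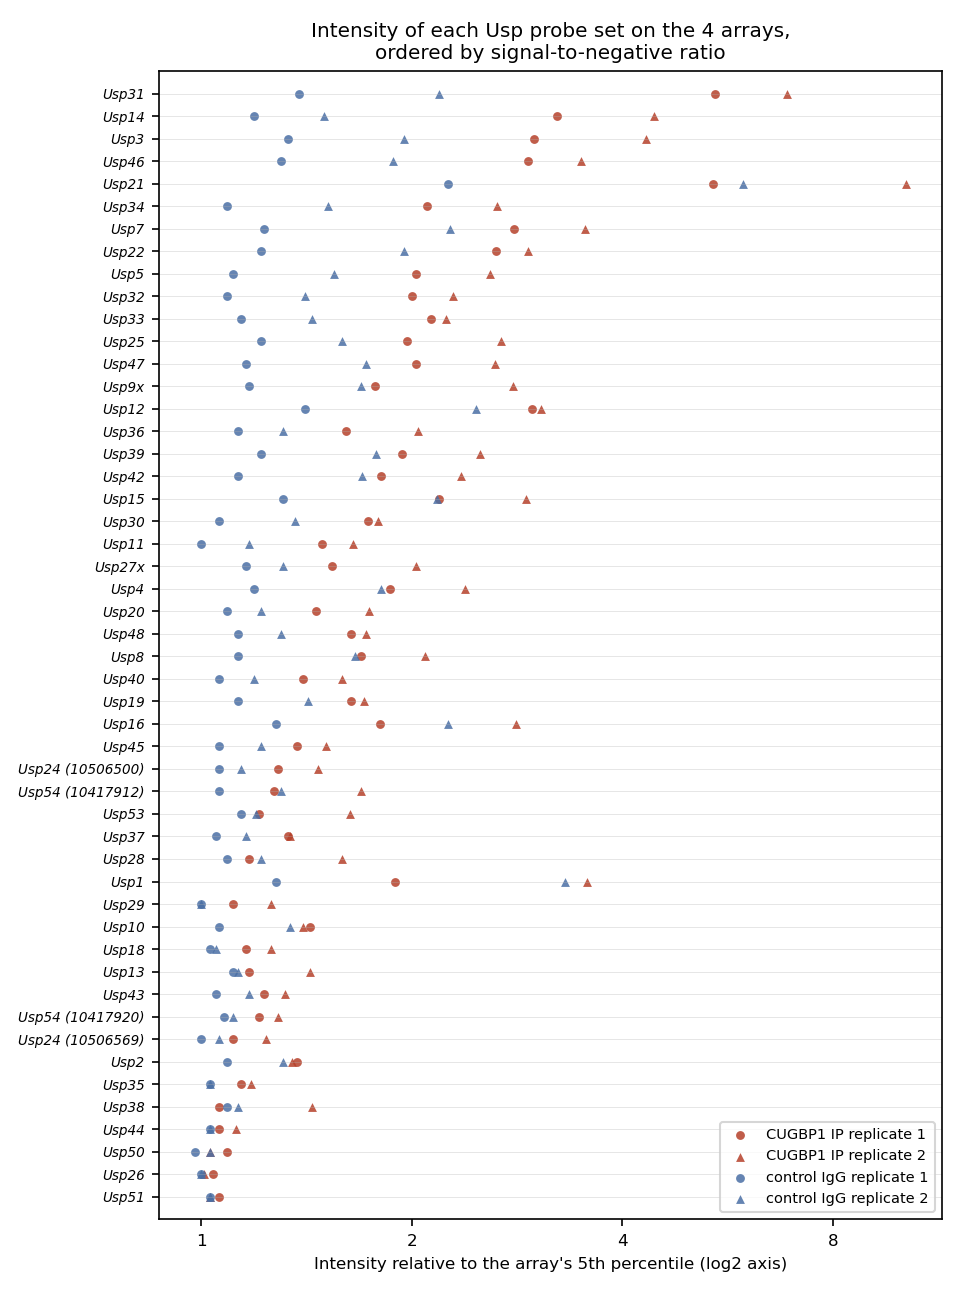
Scaled intensity (multiples of each array's 5th percentile, log2 axis) of the 50 USP probe sets, with 1 point per array (circles replicate 1, triangles replicate 2), ordered from the highest signal-to-negative ratio at the top. The points of the groups are apart for 42 probe sets and overlap for 8, among them *Usp21*, *Usp16* and *Usp1*. With quantile normalization they were apart for 15.

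The USPs that work at the proteasome and on free ubiquitin chains were *Usp14*, *Usp5* and *Usp13*. *Usp14* (probe set 10457409) read 3.23 and 4.44 in the CUGBP1 IP, while control IgG gave 1.19 and 1.5. All 4 values were above background, and the lower CUGBP1 IP value was still well above the higher control value. In limma it rose by 1.5 on the log2 scale, with an SE of 0.46 and an adjusted p of 0.0485, and its ratio of 2.85 ranked at percentile 96.1 of all probe sets. Against control IgG replicate 1 alone its ratio was 3.22 and against replicate 2 alone 2.56. With quantile normalization the difference was 0.62 and the call was lost (limma adjusted p = 0.0694). Over the settings that kept all 4 arrays, the limma adjusted p ran from 0.00279 with arrays scaled to their medians to 0.145 without the intensity trend. In that last setting limma called 0 of all probe sets. With an array left out the log2 difference ran from 1.27, without CUGBP1 IP replicate 2, to 1.73, without CUGBP1 IP replicate 1.

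*Usp5* encodes the main enzyme that takes apart unanchored ubiquitin chains. It read 2.03 and 2.59 in the CUGBP1 IP against 1.11 and 1.55, a ratio of 1.74 that missed the threshold (limma adjusted p = 0.116). Its close paralog *Usp13* read 1.17 and 1.43 against 1.11 and 1.13 (ratio 1.16), and 2 of its 4 values were within background.

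The USPs that act on histones and chromatin had 10 measured genes, of which 0 were called by limma, 4 had an unadjusted p under 0.05 (28.6% of all probe sets were higher at that p) and 7 had both CUGBP1 IP arrays above both controls (70.0%, against 66.3% of all). *Usp3* (probe set 10594613), whose product removes ubiquitin from histones H2A and H2B, read 2.99 and 4.32 in the CUGBP1 IP, while control IgG gave 1.33 and 1.95. The groups were apart, with a ratio of 2.23, a log2 difference of 1.16 and an SE of 0.49 (limma adjusted p = 0.132). It was the member ranked just below the top 5%, at percentile 92.4. The difference shrank to 0.15 with quantile normalization.

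*Usp7*, known for its action on MDM2 and p53, read 2.80 and 3.54 in the CUGBP1 IP against 1.23 and 2.27. The ratio was 1.81 (limma adjusted p = 0.172), and it was 2.58 against control IgG replicate 1 and 1.40 against replicate 2. *Usp21* (probe set 10360105), another H2A protease, gave 5.39 and 10.18 against 2.25 and 5.94. Here the groups overlapped, because control IgG replicate 2 exceeded CUGBP1 IP replicate 1, and the log2 difference of 1.02 had an SE of 0.98. *Usp16*, which deubiquitinates H2A in mitosis, overlapped in the same way at 1.80 and 2.82 against 1.28 and 2.25 (ratio 1.31). The directions of *Usp21* and *Usp16* turned with quantile normalization, at -0.48 and -0.41.

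*Usp22* is the ubiquitin protease of the SAGA coactivator complex, where it works in a module with ATXN7, ATXN7L3 and ENY2. It read 2.64 and 2.93 in the CUGBP1 IP, while control IgG gave 1.22 and 1.95, the groups being apart with a ratio of 1.76 (limma adjusted p = 0.159). *Usp27x*, whose product can take the same place beside ATXN7L3 and ENY2, read 1.54 and 2.03 against 1.16 and 1.31 (ratio 1.45). *Usp51*, the other relative of *Usp22*, was in background on all 4 arrays. The partner transcripts of this module had ratios of 3.10 for *Atxn7*, 2.25 for *Eny2* and 2.20 for *Atxn7l3*. Of these *Atxn7*, at 3.64 and 4.18 against 1.19 and 1.33, rose (limma adjusted p = 0.0306).

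The remaining chromatin members had small ratios. *Usp36*, a nucleolar enzyme, read 1.61 and 2.04 against 1.13 and 1.31, and *Usp42*, its relative, 1.81 and 2.35 against 1.13 and 1.70. Their ratios were 1.5 and 1.47, and the groups were apart for both. *Usp44*, which acts in the spindle checkpoint and on histone H2B, was in background throughout, though it counts among the group's genes that were apart.

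Among USPs grouped under DNA repair and genome maintenance, 0 of 8 genes were called, 4 had an unadjusted p under 0.05 (28.6% over all probe sets) and 6 were apart (66.3% of all were). *Usp46* (probe set 10530641) and *Usp12* encode close paralogs that are switched on by the cofactor WDR48. They were placed here beside *Usp1*, another partner of WDR48, and the counts of the group include them. *Usp46* read 2.93 and 3.49 in the CUGBP1 IP, while control IgG gave 1.30 and 1.88, giving a ratio of 2.02 (log2 1.03, SE 0.45) at a limma adjusted p of 0.139. *Usp12* read 2.97 and 3.06 against 1.41 and 2.47 (ratio 1.55, limma adjusted p = 0.267), with a control replicate 2 well above control replicate 1. The log2 of *Usp12* over *Usp46* within an array was 0.02 and -0.19 in the CUGBP1 IP, while control IgG gave 0.12 and 0.39, without overlap. An exact permutation test gave p = 0.333 for this pair, the lowest possible with 2 arrays against 2. Quantile normalization left *Usp46* at 0.09 and turned *Usp12* to -0.31.

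*Usp1*, the third partner of WDR48 and the enzyme that deubiquitinates FANCD2 and PCNA, showed how much a value could rest on the control array. It read 1.89 and 3.56 in the CUGBP1 IP, while control IgG gave 1.28 and 3.31. The groups overlapped, and the log2 value of 0.33 was smaller than its SE of 0.47 (limma adjusted p = 0.547). Against control IgG replicate 1 the ratio was 2.13 and against replicate 2 it was 0.823, the 1 member of 50 below 1 there. Its difference turned to -0.35 without control IgG replicate 1 and to -0.12 without CUGBP1 IP replicate 2, and was 1.02 without control IgG replicate 2. *Wdr48* itself read 1.83 and 2.43 against 1.13 and 1.52 (ratio 1.61, limma adjusted p = 0.139).

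*Usp47*, which acts in base excision repair, read 2.03 and 2.63 against 1.16 and 1.72 (ratio 1.62). *Usp11* read 1.49 and 1.65 against 1.00 and 1.17, a difference with a small SE (log2 0.54, SE 0.20, limma adjusted p = 0.0920). *Usp48* and *Usp45* had ratios of 1.38 and 1.26, and the groups of both were apart. *Usp28*, known for protecting MYC from degradation, read 1.17 and 1.59 against 1.09 and 1.22 and overlapped.

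The USPs of membrane traffic, receptors and organelles were apart in 9 of 9 genes and called in 0, with 6 at an unadjusted p under 0.05 (66.3% of all probe sets were apart and 28.6% were higher at that p). The highest ratio among them was 1.72. *Usp32*, found on Golgi and endosomes, read 2.00 and 2.29 in the CUGBP1 IP against 1.09 and 1.41 (ratio 1.72, limma adjusted p = 0.0979, and 0.0318 with arrays scaled to their medians). *Usp33* read 2.13 and 2.24 against 1.14 and 1.44 (ratio 1.69), and its paralog *Usp20* 1.46 and 1.74 against 1.09 and 1.22 (ratio 1.39). The proteins of both act on the recycling of adrenergic receptors. *Usp25*, which works in protein quality control at the endoplasmic reticulum, read 1.97 and 2.68 against 1.22 and 1.59, a ratio of 1.65.

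*Usp30*, an enzyme of the mitochondrial outer membrane that opposes mitophagy, read 1.73 and 1.79 against 1.06 and 1.36 (ratio 1.45). *Usp8*, which sorts receptors at the endosome, read 1.69 and 2.09 against 1.13 and 1.66 (ratio 1.35). *Usp19*, anchored in the endoplasmic reticulum and known in muscle for its rise in atrophy, had a ratio of 1.31 at 1.64 and 1.71 against 1.13 and 1.42. For *Usp8* the lower CUGBP1 IP value exceeded the higher control value by little, and *Usp8* and *Usp19* turned to -0.08 and -0.07 with quantile normalization. *Usp10*, which binds the stress granule protein G3BP1, read 1.43 and 1.40 against 1.06 and 1.34 (ratio 1.18), while the ratio of *G3bp1* was 2.48 (limma adjusted p = 0.123). *Usp35* stayed in background.

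The group placed under signalling held the highest ratio of the family. *Usp31* (probe set 10567589), among the less studied members, read 5.43 and 6.88 in the CUGBP1 IP, while control IgG gave 1.38 and 2.19. The gap between the groups was wide compared with either replicate pair, yet the call was missed, at a log2 difference of 1.81 with an SE of 0.68 (limma adjusted p = 0.0982). Its ratio of 3.45 ranked at percentile 97.4, and taken over a single control array it was 4.46 for replicate 1 and 2.81 for replicate 2. The intervals of 1 SE around *Usp31* and *Usp14* overlap, so their order by ratio is not firm. With quantile normalization *Usp31* was 0.63 higher (limma adjusted p = 0.137).

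*Usp34*, an activator of Wnt signalling through axin, read 2.10 and 2.65 against 1.09 and 1.52 (ratio 1.82, limma adjusted p = 0.0963, and 0.0281 with arrays scaled to their medians). *Usp9x*, an enzyme with many substrates that include SMAD4, read 1.77 and 2.79 against 1.17 and 1.69 (ratio 1.59). The lower CUGBP1 IP value of *Usp9x* was just above the higher control value. *Usp15* and *Usp4*, paralogs that act in TGF-beta receptor signalling, read 2.19 and 2.91 against 1.31 and 2.17, and 1.86 and 2.38 against 1.19 and 1.81. Their ratios of 1.47 and 1.41 were close, and both had groups that barely separated and directions that turned with quantile normalization (-0.30 and -0.16).

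The other members of this group had low signal. *Usp40* read 1.40 and 1.59 against 1.06 and 1.19 (ratio 1.33), and *Usp43* 1.23 and 1.32 against 1.05 and 1.17 (ratio 1.15). At *Usp24* (probe set 10506500) the CUGBP1 IP gave 1.29 and 1.47 while both control values, 1.06 and 1.14, were in background (limma adjusted p = 0.165). The fold over the control limits was 1.22, but the log2 difference was 0.04 with arrays scaled to their medians and 0.07 with quantile normalization. The other probe set of *Usp24* was not above background on any array. *Usp38* read 1.06 and 1.44 against 1.09 and 1.13, with 1 value of 4 above background, and the groups overlapped.

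Of the members with other roles 0 were called. *Usp39*, a spliceosome component without protease activity, read 1.94 and 2.50 against 1.22 and 1.78 (ratio 1.48, limma adjusted p = 0.208). *Usp53* and *Usp54*, long classed as inactive, read 1.21 and 1.63 against 1.14 and 1.20, and 1.27 and 1.69 against 1.06 and 1.30. The ratios of these paralogs, 1.21 and 1.25, were close, and the second probe set of *Usp54* was in background on all 4 arrays. In the cell cycle group, *Usp37*, an enzyme of the G1/S transition, read 1.33 and 1.34 in the CUGBP1 IP with both control values, 1.05 and 1.16, in background (limma adjusted p = 0.192). Its fold over the control limits was 1.19, while the limits of the CUGBP1 IP arrays were themselves 1.23 and 1.29. *Usp2*, which stabilises cyclin D1, read 1.37 and 1.35 against 1.09 and 1.31 (ratio 1.13).

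The 9 probe sets in background on all 4 arrays belonged to *Usp18*, *Usp26*, *Usp29*, *Usp35*, *Usp44*, *Usp50*, *Usp51*, *Usp24* and *Usp54*. *Usp18* encodes the protease for the ubiquitin-like protein ISG15, and *Usp26* and *Usp29* are known from testis and germ line. These probe sets read between 0.98 and 1.29, and no fold is given for them. Both CUGBP1 IP values were above both control values for 7 of these 9 as well.

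**Figure D3:**
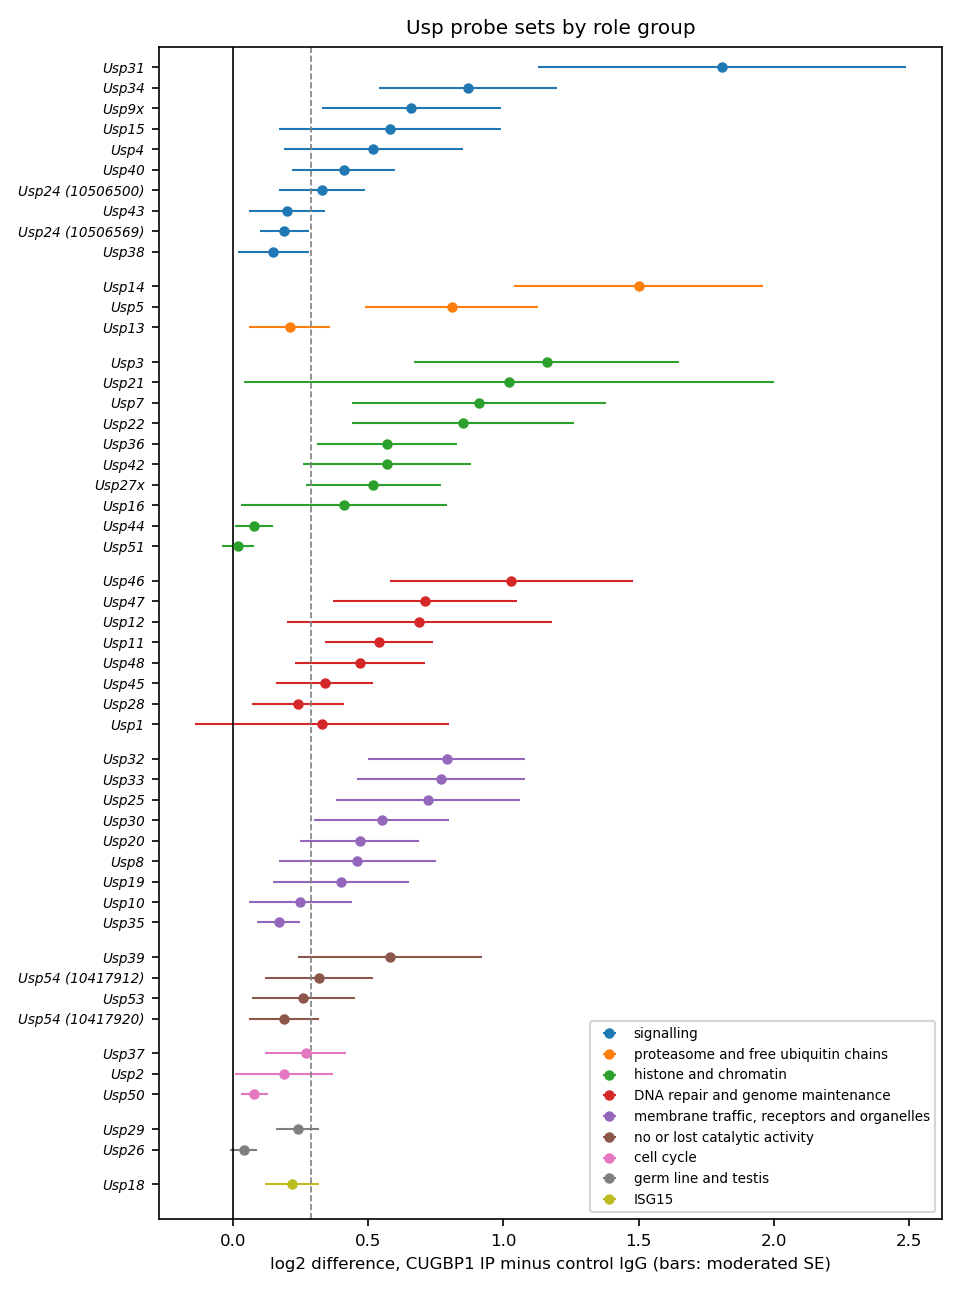
Log2 difference, CUGBP1 IP minus control IgG, of the 50 USP probe sets in their role groups, with bars of 1 moderated SE, a solid line at 0 and a dashed line at 0.29, the median over all probe sets. *Usp31* (1.81) and *Usp14* (1.5) lie farthest right, while *Usp26* and *Usp51* lie near 0. In 22 members the difference was below 0 with quantile normalization.

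The control arrays differed from each other for many members, and for many of all probe sets too. Control IgG replicate 2 was higher than replicate 1 for 45 of the 50 probe sets and equal for 5. Over all 21044 probe sets it was higher for 18155 and equal for 1268. The ratio to control IgG replicate 1 was over 1.5 times that to replicate 2 for 10 members and for 3909 of all probe sets. *Usp21* (3.46 against 1.31) and *Usp1* were the most divided of the members. The median ratio of the members was 1.55 against replicate 1 and 1.20 against replicate 2 (1.31 and 1.13 over all probe sets). *Usp14* and *Usp31* kept the highest ratios against replicate 2. Without control IgG replicate 2 the limit of the top 5% was 3.97, and *Usp31* was above it while *Usp14* was not.

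**Figure D4:**
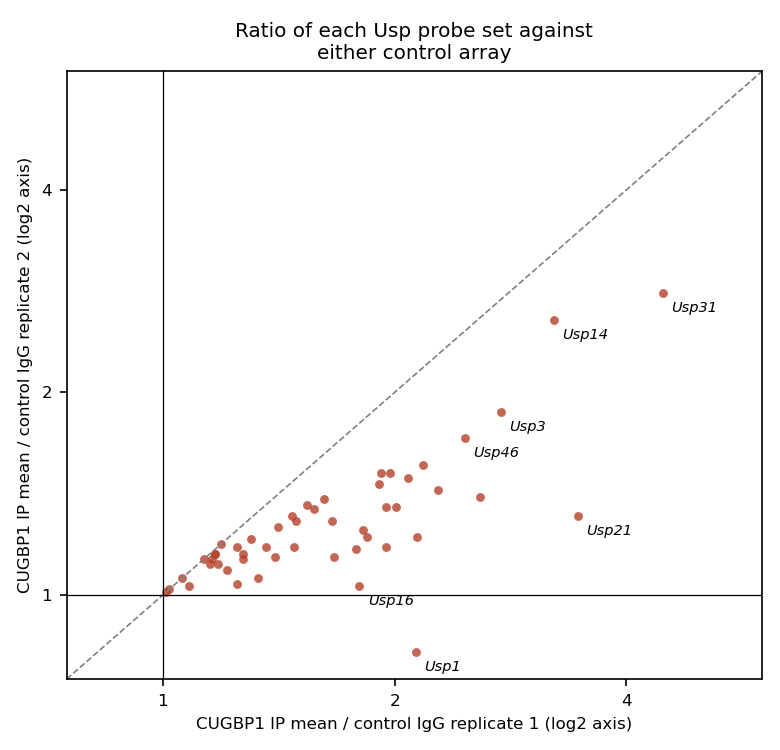
Ratio of the CUGBP1 IP mean to control IgG replicate 1 (horizontal, log2 axis) and to control IgG replicate 2 (vertical, log2 axis) for the 50 USP probe sets, with equal ratios on the dashed line and solid lines at 1. No point lies above the dashed line, *Usp31* is at 4.46 and 2.81, and *Usp1* is the point below 1 against replicate 2, at 0.823.

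Paralogs were compared within arrays for the 11 pairs whose members were above background on at least 2 arrays. The log2 of the pair's ratio did not overlap between the groups for 5 pairs. In 2 of them both genes were above background on all 4 arrays, and the differences were 0.75 for *Usp3* over *Usp16* and -0.34 for *Usp12* over *Usp46*. The other 3, *Usp5* with *Usp13*, *Usp25* with *Usp28* and *Usp20* with *Usp33*, rest in part on values within background, and no difference is given for them. An exact permutation test of 2 arrays against 2 (two-sided) cannot go below p = 0.333, which these 5 pairs reached (Benjamini-Hochberg adjusted exact p = 0.733 over the 11 pairs). That 0.333 is also the share of array arrangements that leave the groups apart. The count of 5 in 11 pairs therefore does not by itself show a difference between paralogs. For *Usp36* over *Usp42* the difference was 0.00, which with so few arrays does not show that these paralogs act alike.

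Other deubiquitinase families were listed for comparison. Of 39 listed genes of the UCH, OTU, Josephin, JAMM, MINDY and ZUFSP families 38 were measured, of which 1 was called higher, 2 were in the top 5% and 26 were apart, with a median log2 difference of 0.58. These are 2.63%, 5.26% and 68.4% of the measured genes, where 1.95%, 5.0% and 66.3% of all probe sets were called, in the top 5% and apart. The called gene was *Stambp*, an endosomal JAMM protease that cuts K63-linked chains, at 4.57 and 8.37 against 1.16 and 1.44 (ratio 4.98, limma adjusted p = 0.0229). For *Otub1*, an OTU protease, the ratio was 3.03 (limma adjusted p = 0.107). Among 4 UCH genes 0 were apart or called by limma (0 at an unadjusted p under 0.05), with ratios from 1.11 to 1.43. Of 3 genes with a USP fold outside the naming rule, *Cyld*, a brake on NF-kB signalling, had a ratio of 1.99, *Uspl1* 1.31 and *Pan2* 1.25, and limma called 0 of them with 1 at an unadjusted p under 0.05. Among 8 listed partners of USPs *Atxn7* was the 1 called (12.5%, against 1.95% of all probe sets). Values of the partners under the other settings are not given here. *Gmps*, *Wdr20* and *Sart3* had ratios of 1.45, 1.34 and 1.28. The difference between USPs and these families was not tested, and the ubiquitin precursor genes were not analysed here.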

How the data were processed

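Lysate of C2C12 (LKO-1) cells was immunoprecipitated with anti-CUGBP1 or normal IgG, and each RNA preparation was run on its own Affymetrix Mouse Gene 1.0 ST array. The authors deposited 1 linear intensity per probe set and array (25175 probe sets), divided by that array's 5th percentile without subtracting it, which compresses ratios of dim probe sets. For the summary program, background step and probe set filter, details were not given in the sources used here.

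A platform annotation paired 21044 probe sets with 1 gene, 1492 with several and 2639 with none. Symbols of 20959 were updated through gene identifiers of assembly GRCm38.p6. A probe set naming *Usp49* with another gene was left out. Samples were grouped by their titles. log2 values of the 21044 were fitted with limma 3.58.1 in R 4.3.3 (eBayes with an intensity trend, two-sided, Benjamini-Hochberg, threshold 0.05, checked on simulated data). "Called", rose and higher calls refer to these p-values. With 2 arrays per group (2 residual degrees of freedom) the number of arrays limits precision. The signal-to-negative ratio is that of the study's methods, which ran no test on single transcripts. Folds over the control limits set control values in background at the array's background limit. They do not allow for the higher limits of the CUGBP1 IP arrays.

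The members, role groups and lists were chosen with earlier results of these data known. Values of all arrays are given by rule for called members, the 12 highest ratios, the 4 highest in control IgG, the 4 lowest ratios above background on all arrays, paralogs and genes with several probe sets. Other members are given where their role is described. Alternatives were 3 scalings, an offset of 1, and a filter that kept probe sets above background on at least 2 arrays. The others were no trend, the replicate number as a block, and leaving out each array.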

Additional observations from a re-analysis of the deposited data

How the results depend on the processing

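The family's counts of calls depended on the scaling and on the model of the spread. With arrays scaled to their medians limma called 3 members higher (*Usp14*, *Usp32* and *Usp34*), where it called 6.47% of all probe sets, and 5 genes of the other deubiquitinase families, 22 members had the groups apart and the median log2 difference was 0.17. With quantile normalization limma called 0 members, where it called 2.01% of all probe sets. At an unadjusted p under 0.05 it found 5 members, against 2921 of all 21044 probe sets. In this setting 15 members were apart and the median was 0.01. An offset of 1 gave 2 calls in the other families. Without the intensity trend limma called 0 of all 21044 probe sets, and thus 0 members and 0 of the other families. At an unadjusted p under 0.05 it found 16 members and 16 genes of the other families, against 4757 of all probe sets. Limited to probe sets above background on at least 2 arrays, which favours those high in the CUGBP1 IP, 40 members were fitted. Of these *Usp31* alone was in the top 5%, and the median of members and of all was 0.54. With the replicate number as a block limma called 37 members and 25 genes of the other families, where it called 56.1% of all probe sets. The numbers 1 and 2 are not said to mark a shared lysate, and deviations of same-numbered arrays correlated at 0.639 over probe sets. With an array left out, a group was down to a single array and the fit had 1 residual degree of freedom, so calls are not given. Then 1 to 2 members were in the top 5%, and the median log2 difference ran from 0.26, without control IgG replicate 1, to 0.63, without control IgG replicate 2. Members called lower stayed at 0 in all settings that kept all 4 arrays.

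Of all 50 members, 22 were below 0 with quantile normalization, 17 with arrays scaled to their medians, 1 with arrays scaled to the receptor median, 2 without CUGBP1 IP replicate 2 and 1 without control IgG replicate 1. Among the 29 genes named by rule, those below 0 with arrays scaled to their medians were *Usp13* (-0.08), *Usp28* (-0.05) and *Usp53* (-0.02). Among the same 29, those below 0 with quantile normalization were *Usp1* (-0.54), *Usp21* (-0.48), *Usp16* (-0.41), *Usp12* (-0.31), *Usp15* (-0.30), *Usp4* (-0.16), *Usp53* (-0.14), *Usp13* (-0.09), *Usp28* (-0.08), *Usp8* (-0.08), *Usp19* (-0.07), *Usp25* (-0.03), *Usp27x* (-0.02) and *Usp42* (0.00). *Usp1* was at -0.12 without CUGBP1 IP replicate 2 and -0.35 without control IgG replicate 1, against 1.02 without control IgG replicate 2. The causes were not tested.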
